A study of Mus musculus with 12 samples.

Results

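The collagen alpha chain genes of the fetal mouse lung were examined in lungs with and without a mesenchymal deletion of Tgfbr2, the gene of a receptor for transforming growth factor beta. Members were the genes of the deposited count table whose symbol is Col, a type number, the letter a and a chain number. The rule found 44 chains among 47069 genes, and 43 of them were among the 17843 genes that passed the low-count filter. RNA was sequenced from whole lungs at embryonic day 15.5 (E15.5), 3 conditional knockout (CKO) lungs and 3 wild-type (WT) lungs, and each lung was sequenced in 2 runs that were summed. The CKO lungs carried floxed Tgfbr2 with the Tbx4-rtTA and Teto-Cre transgenes; their genotype was labelled Tgfbr2lox/flox for CKO replicates 1 and 2 and Tgfbr2flox/flox for CKO replicate 3. The Tbx4-rtTA and Teto-Cre pair gives a doxycycline-dependent Cre in lung mesenchyme. Which cell types kept the receptor gene in these lungs was not measured. The WT lungs were labelled wild type, and whether they carried any of the transgenes is not given in the labels. All animals were labelled C57BL/6 and received doxycycline from E6.5 in food and in drinking water at 1 mg/ml. Litters are not named, so the p-values reflect only the spread among these lungs, some of which may be littermates.

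Collagens are extracellular proteins in which alpha chains wind into a triple helix, and each type is built from its own chain or set of chains. Fibrillar collagens make the tensile fibres of connective tissue, type IV makes the network of basement membranes, and the smaller classes link fibres, membranes and cells. In the developing lung, most fibrillar chains come from mesenchymal cells around the airways and vessels, and transforming growth factor beta is known as an inducer of collagen genes in such cells. In whole lungs, fewer cells of a type and less RNA per cell cannot be told apart.

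Gene counts summed to 36741615 to 41680516 in CKO lungs and to 31983717 to 51572845 in WT lungs. The share of uniquely mapped reads that fell outside features was 11.8% to 17.0% in CKO lungs, with CKO replicate 1 highest, and 14.5% to 16.1% in WT lungs. Each group held 1 female lung, its replicate 1, and 2 male lungs, as read from Xist and Y chromosome counts. On the leading principal component of all tested genes, CKO replicate 1 lay between the WT lungs and the other CKO lungs. Tgfbr2 itself had 213, 221 and 239 counts scaled to library size (CPM) in CKO lungs and 199.7, 203 and 230.0 CPM in WT lungs (adjusted p = 0.453, edgeR). That count covers the whole gene in a tissue of many cell types and does not check the deletion. Lung mesenchyme markers were present in both groups, with the 6 genes of that list summing to 1027 to 1142 CPM in CKO lungs and 1025 to 1110.0 CPM in WT lungs.

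The most abundant chains per length were those of the interstitial fibres and of the basement membrane. Levels between genes are given as CPM per kilobase of merged exons (RPKM), with the mean ± SD over the 3 lungs of a group (n = 3). Col3a1, the single chain of type III collagen, had 336 ± 25.8 RPKM in CKO lungs and 278 ± 10.9 RPKM in WT lungs. Col4a1, a chain of the common basement membrane collagen, had 232 ± 6.37 RPKM in CKO lungs and 211 ± 26.5 RPKM in WT lungs. Col1a1, a chain of the main fibre collagen type I, had 247 ± 25.7 RPKM in CKO lungs and 200.4 ± 19.5 RPKM in WT lungs. These were the 3 highest chains in WT lungs. By merged exon length Col3a1 stood above Col4a1 by more than the spread of the lungs, and Col4a1 and Col1a1 did not differ beyond it. Of the 44 chains, 7 had a mean of at least 100 RPKM in WT lungs and 11 were under 1 RPKM. The order rests on the length used: with the longest coding transcript in place of merged exons, Col1a2 ranked 2 in WT lungs instead of 5, with a mean of 286 against 123 RPKM, and in the RPKM that the authors deposited it ranked 6. In those deposited RPKM Col4a1 ranked 1 in WT lungs and Col3a1 ranked 2, with means of 214 and 212.

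**Figure D1:**
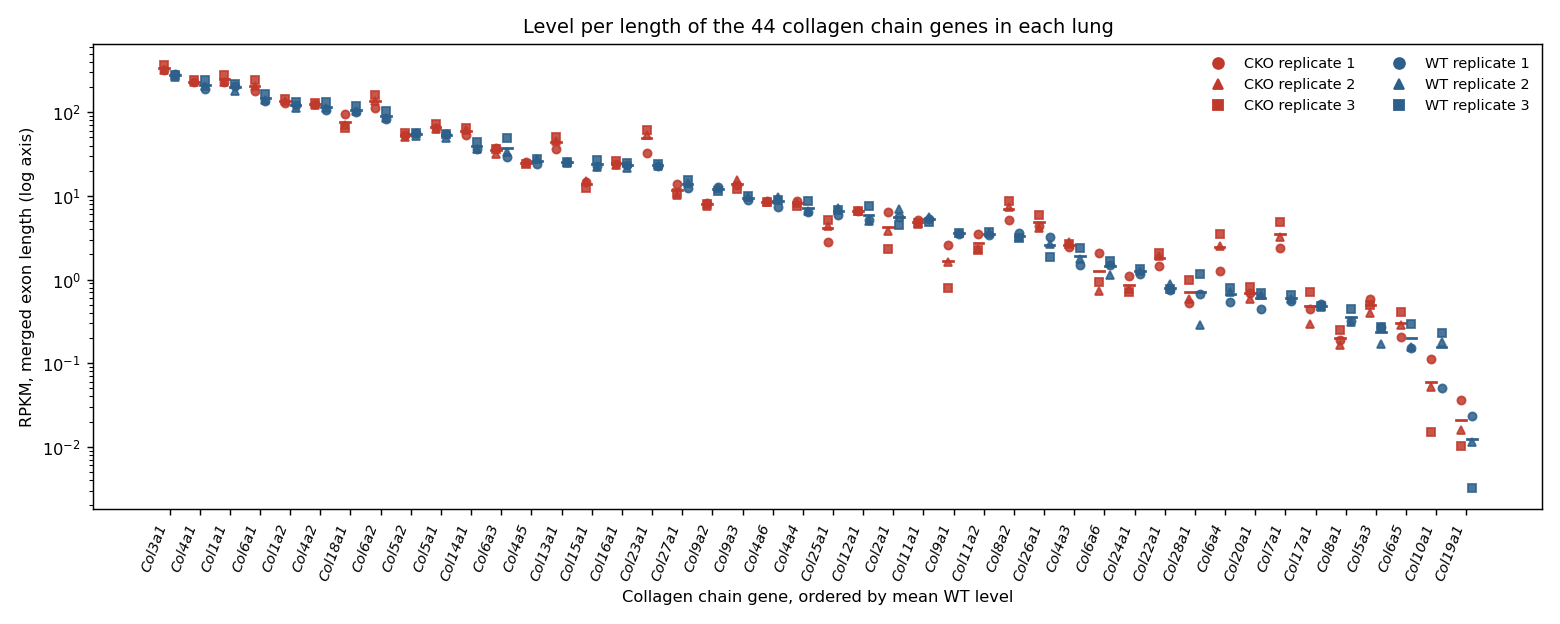
Level per length (RPKM, log axis) of each of the 44 collagen chain genes in each lung, ordered by the mean of the WT lungs; points are lungs, with CKO left of WT for each gene, and short bars are group means. Levels run from the type III and type IV chains on the left to Col19a1, with 27 counts in all, on the right; among the abundant chains the groups lie close, and Col23a1, Col8a2, Col6a4 and Col7a1 stand apart further right.

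Between groups, 13 of the 43 tested chains rose in CKO lungs, 2 fell and 28 did not pass the test (edgeR quasi-likelihood test over all genes, adjusted p under 0.05). The 13 were 30.2% of the tested chains, against 5.64% of all tested genes called higher, and the 2 were 4.65%, against 3.08% of all tested genes called lower. Those that rose were Col7a1, Col6a4, Col22a1, Col8a2, Col23a1, Col5a3, Col26a1, Col13a1, Col14a1, Col6a2, Col9a3, Col6a1 and Col5a1, and those that fell were Col15a1 and Col9a2. In all 15 the CKO and WT lungs did not overlap, but they were called on these same lungs, so this is no further support. Over all tested chains, 16 had every CKO lung above every WT lung and 7 had every CKO lung below, 53.5% together, against 29.9% of all tested genes (15.5% above and 14.4% below). The median log2 fold change (CKO over WT) was 0.14 for the tested chains and 0.00 for all tested genes. Of the 7 chains at 100 RPKM or more in WT lungs 1 was called, Col6a1, and 6 of the 13 that rose had a log2 fold change of at least 1. That count rests on the length used, since Col6a2 had 91.1 RPKM in WT lungs by merged exons and 163 RPKM by the longest coding transcript. The median WT level was 9.46 RPKM for the chains that rose and 6.27 RPKM for the tested chains not called.

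**Figure D2:**
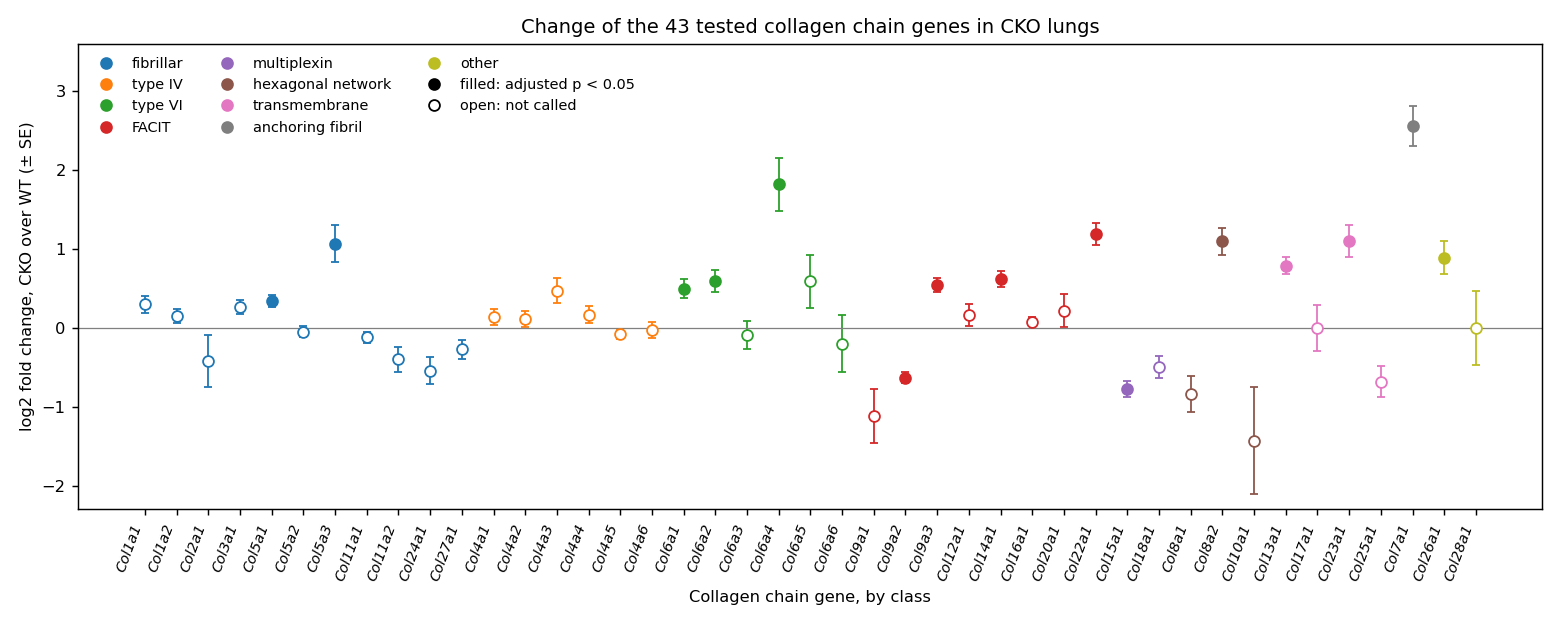
Log2 fold change, CKO over WT, of the 43 tested collagen chain genes with its standard error, grouped by collagen class; filled points passed an adjusted p of 0.05 and open points did not. Type IV chains lie near 0, Col7a1 is highest at 2.56, and the 2 filled points below 0 are Col9a2 and Col15a1.

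The size of these shifts differed among CKO lungs. CKO replicate 1 was the lowest CKO lung in 9 of the 13 chains that rose and CKO replicate 3 was the highest in 11. Leaving out a lung changed the count of chains called higher and the counts of all genes. The count of chains called lower changed only without CKO replicate 1. Without CKO replicate 1, 14 chains rose and 10 fell, beside 9.41% and 6.51% of all tested genes, and all 15 calls held. Without CKO replicate 2 there were 3 and 2 (1.16% and 0.493% of all tested genes), and without CKO replicate 3 there were 7 and 2 (1.79% and 0.867%). Without WT replicate 1 there were 4 and 2 (1.45% and 0.712%), without WT replicate 2 there were 2 and 2 (0.894% and 0.497%), and without WT replicate 3 there were 16 and 2 (6.88% and 4.49%). Col7a1, Col22a1, Col15a1 and Col9a2 passed with any 1 lung left out. In the authors' deposited table, 13 of 43 listed chains were higher and 8 lower at a false discovery rate under 0.05, against 6.96% and 5.09% of its 19683 genes, and 14 of the 15 chains called here were among them; Col5a1 was at 0.0535. The further chains that the authors' deposited table lists as lower were Col8a1, Col9a1, Col10a1, Col18a1, Col24a1 and Col25a1, and the further chain it lists as higher was Col4a3 (log2 fold change 0.49, false discovery rate 0.0488).

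**Figure D3:**
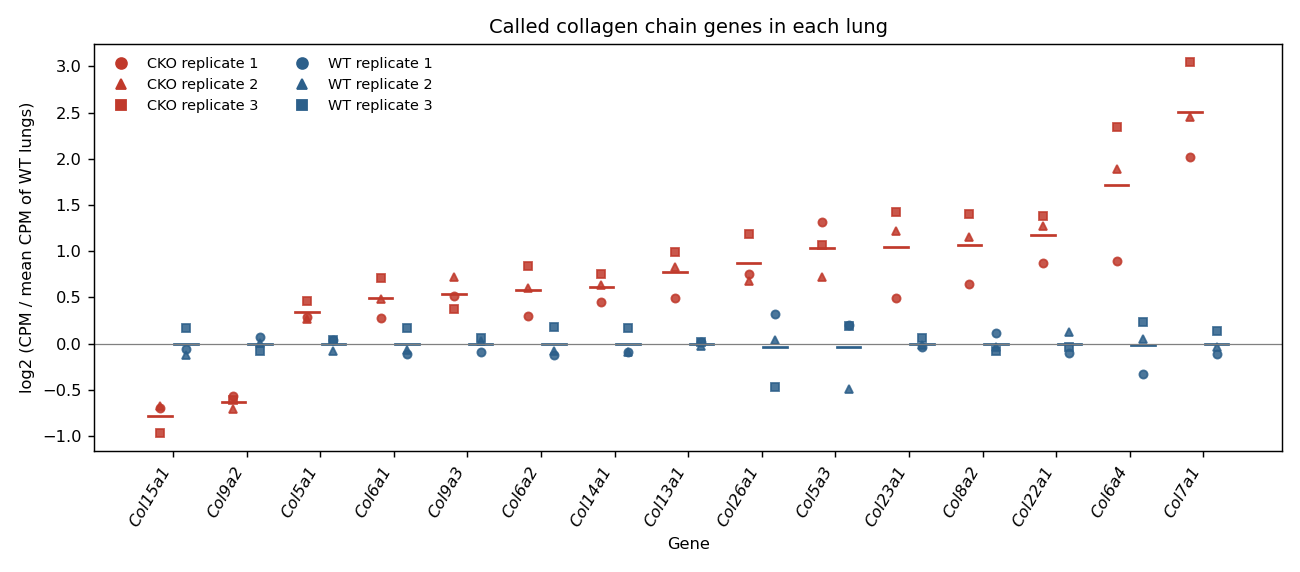
CPM of the 15 called collagen chain genes in each lung as log2 of its ratio to the mean of the WT lungs, ordered by fold change; CKO points are left of WT points for each gene and short bars mark the mean of the points. The groups do not overlap for any of the 15 genes, and the CKO lungs are spread widest for Col6a4, Col7a1 and Col23a1.

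Col7a1 had the largest rise. It encodes the chain of type VII collagen, the anchoring fibril that ties the basement membrane of stratified epithelia to the tissue below it, and it lies at chr9:108953586-108984875 on the plus strand (GRCm38). It had 24.8, 33.5 and 50.3 CPM in CKO lungs, and 5.63, 5.96 and 6.73 CPM in WT lungs. The WT lungs were close together, and the lowest CKO lung was far above the highest of them. The log2 fold change was 2.56 ± 0.25 (SE), 5.91-fold higher (adjusted p = 0.00228). Per length it stood at 3.52 ± 1.26 RPKM in CKO lungs and 0.593 ± 0.0546 RPKM in WT lungs, so it was a low chain in WT lungs. Of the 4 skin markers, the basal keratin genes were near 0: Krt5 averaged 0.0995 CPM in CKO lungs and 0.165 CPM in WT lungs, and Krt14 averaged 0.201 and 0.125 CPM. The suprabasal keratin gene Krt10 averaged 7.66 CPM in CKO lungs and 6.66 CPM in WT lungs, and Trp63 averaged 1.17 and 2.52 CPM (adjusted p = 0.296 and 0.0594). The part of such cells in the Col7a1 value was not tested. Col17a1, the transmembrane collagen of epithelial hemidesmosomes, had 2.66, 1.78 and 4.27 CPM in CKO lungs and 3.07, 2.84 and 2.87 CPM in WT lungs (adjusted p = 0.996).

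The promoter window of Col7a1 is shown because this chain moved most. It spans chr9:108953336-108953635 on the plus strand, from 250 bases before to 50 bases after the start of the gene, and comes from RefSeq (GRCm38.p6). Capitals mark short motifs found on either strand. The core promoter motifs searched were the TATA box, with the letters TATAAA, the CCAAT box, with the letters of its name, and the GC box, with the letters GGGCGG. The CAGA box, searched with the letters CAGACA, is known to bind SMAD proteins, which carry the signal of transforming growth factor beta, and the AP-1 site was searched with the letters TGANTCA.
Col7a1: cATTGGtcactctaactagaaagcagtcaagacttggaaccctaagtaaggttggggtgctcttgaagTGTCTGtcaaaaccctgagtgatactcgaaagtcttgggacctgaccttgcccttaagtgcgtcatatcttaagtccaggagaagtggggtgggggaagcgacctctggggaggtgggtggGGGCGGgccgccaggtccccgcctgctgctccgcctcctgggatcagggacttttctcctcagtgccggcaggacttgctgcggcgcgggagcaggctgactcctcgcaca
The window holds 1 CCAAT box, 1 CAGA box and 1 GC box. Such boxes are common: of 32851 mouse promoter windows of the same length, 13.6% hold a TATA box, 37.4% a CCAAT box, 35.7% a GC box, 21% a CAGA box and 7.81% an AP-1 site. RefSeq gave 38 windows for 35 of the collagen genes, of which 5, 13, 23, 9 and 1 hold them in the same order. A match is only a match of letters and does not show a bound site.

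Among the 11 fibrillar chains, 2 rose, none fell and 9 did not pass, with a median log2 fold change of -0.05. Both that rose belong to type V collagen, which seeds and limits the width of type I fibres. Col5a1 (chr2:27886425-28039514) had 547, 539 and 618 CPM in CKO lungs and 461, 423 and 462 CPM in WT lungs. Col5a3 (chr9:20770050-20815067), a minor type V chain, had 4.03, 2.67 and 3.40 CPM in CKO lungs and 1.86, 1.15 and 1.85 CPM in WT lungs. Both sets were apart, with CKO replicate 3 highest for Col5a1 and CKO replicate 1 highest for Col5a3. The changes were 1.27-fold for Col5a1 (log2 0.34 ± 0.08, adjusted p = 0.0339) and 2.09-fold for Col5a3 (log2 1.07 ± 0.24, adjusted p = 0.0371). Both calls were lost without CKO replicate 2, CKO replicate 3, WT replicate 1 or WT replicate 2, with adjusted p of 0.0803 to 0.158 for Col5a1 and 0.0780 to 0.121 for Col5a3. Exons of Col5a1 share short stretches with the opposite-strand transcripts 2810430I11Rik and Gm13372, which had 529 and 406 counts beside 125102.

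The chains of the main fibres did not pass in the edgeR fit. Col1a1 had 1524, 1522 and 1815 CPM in CKO lungs, and 1347, 1174 and 1425 CPM in WT lungs (log2 0.30 ± 0.11, adjusted p = 0.127). Its partner in the type I helix, Col1a2, had 1586, 1687 and 1807 CPM in CKO lungs, and 1528, 1408 and 1645 CPM in WT lungs (log2 0.15 ± 0.09, adjusted p = 0.340). Col3a1 had 3173, 3130.0 and 3589 CPM in CKO lungs, and 2827, 2615 and 2746 CPM in WT lungs (log2 0.27 ± 0.09, adjusted p = 0.0965). Every CKO lung was above every WT lung for Col1a1 and Col3a1, and the groups overlapped for Col1a2. Col1a1 passed with DESeq2 (adjusted p = 0.0145), and Col3a1 passed with DESeq2 (0.00130), with limma-voom (0.0456) and without CKO replicate 1 (log2 0.31, adjusted p = 0.0267). Col5a2, the second main chain of type V, had 512, 485 and 536 CPM in CKO lungs, and 544, 504 and 537 CPM in WT lungs (log2 -0.05 ± 0.07, adjusted p = 0.706).

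The fibrillar chains known from cartilage had lower means in CKO lungs and did not pass. Col2a1, the chain of type II collagen, had 59.7, 35.3 and 21.5 CPM in CKO lungs, and 51.3, 63.9 and 41.0 CPM in WT lungs (adjusted p = 0.472). Col11a1, a type XI chain that joins type II fibres, had 66.0, 58.9 and 59.7 CPM in CKO lungs, and 67.7, 71.7 and 61.5 CPM in WT lungs (adjusted p = 0.339). CKO replicate 1 lay within the range of the WT lungs for Col2a1, and without it Col2a1 was called lower (log2 -0.87, adjusted p = 0.0406). The other fibrillar chains, Col11a2, Col24a1 and Col27a1, had log2 fold changes of -0.40, -0.54 and -0.27 with adjusted p of 0.174, 0.0983 and 0.202. Without CKO replicate 1 these 3 were called lower too, at log2 -0.62, -0.76 and -0.40 and adjusted p of 0.00132, 0.00427 and 0.0194.

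Cartilage markers had means that differed in direction. The 7 markers found summed to 177 to 197 CPM in CKO lungs and 185 to 191 CPM in WT lungs, and of 6 tested 1 fell, Sox9, whose call was lost without CKO replicate 2, CKO replicate 3, WT replicate 1 or WT replicate 2 (adjusted p = 0.0744 to 0.139). Most of that sum came from Hapln1 and Sox9, whose means moved in opposite directions. Hapln1 averaged 108 CPM in CKO lungs and 94.0 CPM in WT lungs, and Sox9 71.4 and 83.6 CPM. The defining marker Acan had 0.299, 0 and 0.0237 CPM in CKO lungs, and 0.352, 0.409 and 0.331 CPM in WT lungs (adjusted p = 0.241). Matn1 averaged 0 CPM in CKO lungs and 0.0676 CPM in WT lungs. Comp averaged 0.216 and 0.330 CPM, Matn3 1.81 and 1.74 CPM, and Lect1 7.93 and 7.03 CPM (adjusted p = 0.416, 0.954 and 0.642). The part of cartilage cells in the type II, IX and XI values was not tested. Bone markers summed to 4.13 to 5.40 CPM in CKO lungs and 4.89 to 5.84 CPM in WT lungs, and none of 3 tested passed.

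All 6 type IV chains, which form the network of basement membranes, stayed short of the threshold, and their log2 fold changes lay between -0.08 and 0.47 with a median of 0.12. Col4a1 had 1704, 1712 and 1789.8 CPM in CKO lungs, and 1411, 1523 and 1796 CPM in WT lungs (log2 0.14 ± 0.10, adjusted p = 0.438). Col4a2, its partner chain, had 822, 809 and 860.2 CPM in CKO lungs, and 692, 739 and 879 CPM in WT lungs (log2 0.11 ± 0.10, adjusted p = 0.532). WT replicate 3 reached the level of the CKO lungs for both chains. The pair of the specialised basement membranes of kidney and alveoli was less abundant. Col4a3 had 24.2, 27.8 and 26.5 CPM in CKO lungs, and 15.0, 17.7 and 23.9 CPM in WT lungs (log2 0.47 ± 0.16, adjusted p = 0.114). Col4a4 had 91.9, 86.3 and 81.2 CPM in CKO lungs, and 67.7, 71.0 and 91.6 CPM in WT lungs (log2 0.17 ± 0.11, adjusted p = 0.385). Again WT replicate 3 was the highest WT lung, and the groups overlapped for Col4a4 but not for Col4a3. Col4a3 was called higher with DESeq2 (adjusted p = 0.0270) and, as given above, in the authors' deposited table. Without WT replicate 3 both were called higher, at log2 0.68 and 0.33 and adjusted p of 0.0141 and 0.0257. The X-linked pair overlapped between groups. Col4a5, which joins Col4a3 and Col4a4 in their network, had 173, 168 and 164 CPM in CKO lungs, and 163, 183 and 185 CPM in WT lungs (log2 -0.08, adjusted p = 0.452). Col4a6, known from the basement membrane of smooth muscle, had 68.7, 67.0 and 68.1 CPM in CKO lungs, and 58.3, 78.4 and 70.8 CPM in WT lungs (log2 -0.03, adjusted p = 0.899).

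Col4a1 and Col4a2 start 21 bases apart on opposite strands of chromosome 8 and share 22 exon bases. The promoter window of Col4a2 is shown because the chains held almost one ratio in every lung, as given with the chain ratios. Whether the close starts bear on that ratio was not tested. The window comes from RefSeq at chr8:11312555-11312854 on the plus strand (GRCm38.p6), with capitals as for Col7a1. Most of it lies inside the Col4a1 gene, which spans chr8:11198423-11312826 on the minus strand. Col4a1 has its own RefSeq window, chr8:11312777-11313076, which shares only a part of the one shown.
Col4a2: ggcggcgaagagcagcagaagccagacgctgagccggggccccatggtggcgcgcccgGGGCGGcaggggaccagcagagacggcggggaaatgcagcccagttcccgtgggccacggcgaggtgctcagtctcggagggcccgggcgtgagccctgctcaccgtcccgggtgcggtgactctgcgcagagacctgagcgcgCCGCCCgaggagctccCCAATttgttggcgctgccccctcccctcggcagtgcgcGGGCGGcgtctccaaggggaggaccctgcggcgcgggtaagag
The window holds 1 CCAAT box and 3 GC boxes.

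Endothelial cells also make type IV chains, and the markers of that cell type moved with the groups. Of 5 endothelial markers 4 rose, Pecam1, Kdr, Emcn and Tek, and Cdh5 had an adjusted p of 0.139; the 5 summed to 1243 to 1407 CPM in CKO lungs and 1010.2 to 1101 CPM in WT lungs. Of 4 epithelial markers 1 fell, Epcam, and they summed to 1122 to 1456 CPM in CKO lungs and 1552 to 2104 CPM in WT lungs. Of 4 mesothelial markers 1 rose, Upk3b, and they summed to 102 to 116 CPM in CKO lungs and 71.0 to 77.8 CPM in WT lungs. Of 4 smooth muscle markers 2 fell, Acta2 and Myh11, and they summed to 393 to 698 CPM in CKO lungs and 976 to 1033 CPM in WT lungs. Of 6 mesenchyme markers 1 rose, Tcf21, and 2 fell, Pdgfra and Tbx5. Emcn, Upk3b, Tcf21, Pdgfra and Tbx5 passed with any 1 lung left out. Pecam1, Tek and Epcam lost their calls without CKO replicate 2, CKO replicate 3, WT replicate 1 or WT replicate 2, with adjusted p of 0.0541 to 0.0969, and Kdr without WT replicate 2 (adjusted p = 0.0571). Acta2 lost its call without CKO replicate 2, WT replicate 1 or WT replicate 2 (adjusted p = 0.0649 to 0.0825), and Myh11 without any lung other than CKO replicate 1 (adjusted p = 0.0563 to 0.134). Their part in the collagen values was not tested.

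Type VI collagen forms beaded microfibrils next to basement membranes, with Col6a1 and Col6a2 as constant chains of the helix and Col6a3 or one of its relatives as the variable chain. Of the 6 chains 3 rose, none fell and 3 did not pass, with a median log2 fold change of 0.54. Col6a1 had 783, 904 and 1057 CPM in CKO lungs, and 598, 614 and 725 CPM in WT lungs. Col6a2 had 929, 1147 and 1358 CPM in CKO lungs, and 696, 719.5 and 859 CPM in WT lungs. Both ordered the CKO lungs alike, with replicate 1 lowest and replicate 3 highest, and neither overlapped between groups. They were 1.42-fold and 1.51-fold higher (log2 0.50 ± 0.12 and 0.59 ± 0.14, adjusted p = 0.0462 and 0.0449). Both calls were lost without CKO replicate 2, CKO replicate 3, WT replicate 1 or WT replicate 2, with adjusted p of 0.135 to 0.183 for Col6a1 and 0.128 to 0.176 for Col6a2.

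The variable chains went apart. Col6a4 (chr9:105989454-106096783), a relative that can take the place of Col6a3 in the helix, had 10.8, 21.5 and 29.5 CPM in CKO lungs, and 4.61, 5.98 and 6.81 CPM in WT lungs. The log2 fold change was 1.82 ± 0.34, 3.54-fold higher (adjusted p = 0.0199), and the CKO lungs ranged widely. This call was lost without CKO replicate 2, WT replicate 1 or WT replicate 2, with adjusted p of 0.0804 to 0.0910. Col6a3, the main variable chain, had 445, 384 and 430.3 CPM in CKO lungs, and 352, 397 and 594 CPM in WT lungs (log2 -0.09 ± 0.18, adjusted p = 0.802), and here the WT lungs were the wider group. Its relatives Col6a5 and Col6a6 had log2 fold changes of 0.59 and -0.20 (adjusted p = 0.328 and 0.790), and Col6a6 was called lower without CKO replicate 1 (log2 -0.77, adjusted p = 0.0234).

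The promoter windows of Col6a1 and Col6a2 are shown because these neighbours on chromosome 10 rose by like amounts. Both genes lie on the minus strand, Col6a1 at chr10:76708792-76726168 and Col6a2 at chr10:76595762-76623630 (GRCm38). The RefSeq windows (GRCm38.p6) are chr10:76725995-76726294 for Col6a1 and chr10:76623355-76623654 for 1 of the 2 starts listed for Col6a2, both read on the minus strand, with capitals as for Col7a1.
Col6a1: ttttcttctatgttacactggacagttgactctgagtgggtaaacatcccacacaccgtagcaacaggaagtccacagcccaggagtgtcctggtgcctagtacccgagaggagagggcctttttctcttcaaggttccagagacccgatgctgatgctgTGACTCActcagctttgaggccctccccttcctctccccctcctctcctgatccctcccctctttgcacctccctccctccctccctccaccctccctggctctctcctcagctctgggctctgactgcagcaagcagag
Col6a2: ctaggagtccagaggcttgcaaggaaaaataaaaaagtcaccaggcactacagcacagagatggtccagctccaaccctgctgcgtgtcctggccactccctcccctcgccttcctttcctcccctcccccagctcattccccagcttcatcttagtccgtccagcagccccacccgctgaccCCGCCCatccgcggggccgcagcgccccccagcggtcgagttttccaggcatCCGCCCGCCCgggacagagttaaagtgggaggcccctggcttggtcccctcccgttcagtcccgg
The Col6a1 window holds 1 AP-1 site, the only one among the 38 collagen windows, and the Col6a2 window holds 3 GC boxes, 2 of which overlap.

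The FACIT class sits on the surface of fibres and links them to their surroundings. Of its 9 chains 8 were tested, 3 rose, 1 fell and 4 did not pass, with a median log2 fold change of 0.19. Col22a1 (chr15:71795795-72034227), known from the myotendinous junction, had 13.5, 17.8 and 19.2 CPM in CKO lungs, and 6.88, 8.04 and 7.19 CPM in WT lungs. The lowest CKO lung was well above the highest WT lung. The change was 2.28-fold (log2 1.19 ± 0.14, adjusted p = 0.00482), and it passed with any 1 lung left out, at adjusted p of up to 0.0322. Of the skeletal muscle markers Myod1, Myog and Myf5 were near 0, at 0.0158 to 0.0327 CPM on average in CKO lungs and 0.0107 to 0.0717 CPM in WT lungs. Pax7 and Myh8 rose, and lost their calls without CKO replicate 2, CKO replicate 3, WT replicate 1 or WT replicate 2 (adjusted p = 0.0533 to 0.0930). In CKO lungs Pax7 had 0.473, 6.21 and 6.25 CPM and Myh8 had 1.12, 3.81 and 3.73 CPM, so both were lowest in CKO replicate 1. Myh3 averaged 0.225 CPM in CKO lungs and 0.260 CPM in WT lungs and did not pass (adjusted p = 0.799). The 6 markers together summed to 1.82 to 10.4 CPM in CKO lungs and 0.681 to 0.838 CPM in WT lungs; their part in the Col22a1 value was not tested.

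Col14a1 (chr15:55307750-55520803), which binds type I fibres, had 374, 425 and 459 CPM in CKO lungs, and 257, 256 and 306 CPM in WT lungs. It was 1.53-fold higher (log2 0.62 ± 0.10, adjusted p = 0.0127), and the call was lost without CKO replicate 2, WT replicate 1 or WT replicate 2, with adjusted p of 0.0576 to 0.0733. Col12a1 and Col16a1, which also bind fibres, did not pass. Col12a1 had 101 CPM in each CKO lung, and 78.3, 77.4 and 115 CPM in WT lungs (adjusted p = 0.530); WT replicate 3 lay above the others, and without it Col12a1 was called higher (log2 0.38, adjusted p = 0.00469). Col16a1 had 164, 159.9 and 176 CPM in CKO lungs, and 159, 146 and 166 CPM in WT lungs (adjusted p = 0.442). Col20a1 averaged 3.57 ± 0.617 CPM in CKO lungs and 3.06 ± 0.687 CPM in WT lungs (adjusted p = 0.574), and Col19a1, with 27 counts over all lungs, was under the filter.

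The chains of type IX collagen, which decorates type II fibres, went in different directions. Col9a2, at chr4:121039385-121055322 on the plus strand, had 25.5, 23.1 and 24.7 CPM in CKO lungs, and 39.6, 38 and 35.8 CPM in WT lungs. It was 1.55-fold lower (log2 -0.63 ± 0.07, adjusted p = 0.00341), with the lungs of each group close together, and it passed with any 1 lung left out, at adjusted p of up to 0.0310. Col9a3 (chr2:180597790-180622189) had 52.0, 60.1 and 47.1 CPM in CKO lungs, and 34.2, 37.1 and 38.1 CPM in WT lungs. It was 1.45-fold higher (log2 0.54 ± 0.09, adjusted p = 0.0169), and lost its call without CKO replicate 2, WT replicate 1 or WT replicate 2, with adjusted p of 0.0559 to 0.0780. Of its exon bases 6.07% overlap Tcfl5 on the opposite strand, which had 313 counts beside 10995 for Col9a3. Col9a1, the remaining chain of the helix, had 13.1, 8.29 and 4.01 CPM in CKO lungs, and 18.0, 18.5 and 18.5 CPM in WT lungs (log2 -1.12 ± 0.34, adjusted p = 0.0869). The groups did not overlap for it, and the CKO lungs were spread wide; without CKO replicate 1 it was called lower (log2 -1.57, adjusted p = 0.00456).

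Both multiplexins, collagens of the basement membrane zone that carry sugar chains, had every CKO lung below every WT lung. Col15a1 (chr4:47208161-47313167) had 93.9, 95.0 and 77.8 CPM in CKO lungs, and 146, 139.7 and 170.1 CPM in WT lungs. It was 1.71-fold lower (log2 -0.77 ± 0.10, adjusted p = 0.00580) and passed with any 1 lung left out, at adjusted p of up to 0.0301. Col18a1, the source of the fragment endostatin, had 661, 495 and 454 CPM in CKO lungs, and 706, 726 and 838 CPM in WT lungs (log2 -0.50 ± 0.14, adjusted p = 0.0712). CKO replicate 1 was nearest to the WT lungs, and without it Col18a1 was called lower (log2 -0.66, adjusted p = 0.00225).

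The promoter windows of Col15a1 and Col9a2 are shown because these were the chains called lower. They come from RefSeq (GRCm38.p6) at chr4:47207762-47208061 and chr4:121039316-121039615, both on the plus strand, with capitals as for Col7a1.
Col15a1: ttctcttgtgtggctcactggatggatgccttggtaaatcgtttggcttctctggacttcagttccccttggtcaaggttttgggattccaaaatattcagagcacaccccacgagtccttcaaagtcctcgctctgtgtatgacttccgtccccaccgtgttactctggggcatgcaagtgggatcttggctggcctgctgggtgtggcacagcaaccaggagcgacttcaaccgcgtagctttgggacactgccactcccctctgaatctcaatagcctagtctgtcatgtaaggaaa
Col9a2: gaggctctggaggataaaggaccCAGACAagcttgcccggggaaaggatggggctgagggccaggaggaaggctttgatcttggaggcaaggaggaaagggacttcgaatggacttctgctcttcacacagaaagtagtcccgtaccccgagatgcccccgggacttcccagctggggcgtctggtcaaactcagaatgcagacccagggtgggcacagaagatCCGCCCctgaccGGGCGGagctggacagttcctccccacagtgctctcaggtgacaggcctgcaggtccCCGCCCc
The Col15a1 window holds none of the 5 boxes and the Col9a2 window holds 1 CAGA box and 3 GC boxes.

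Among the 3 chains of hexagonal networks, 1 rose and 2 did not pass. Col8a2 (chr4:126286793-126314330), a type VIII chain known from vessels and the cornea, had 23.2, 32.9 and 39.1 CPM in CKO lungs, and 16, 14.5 and 14.0 CPM in WT lungs. It was 2.14-fold higher (log2 1.10 ± 0.17, adjusted p = 0.0126), and lost its call without CKO replicate 2 or WT replicate 2, with adjusted p of 0.0620 and 0.0697. Its partner Col8a1 was low, at 1.47, 1.30 and 1.95 CPM in CKO lungs, and 2.5, 2.41 and 3.53 CPM in WT lungs (log2 -0.84 ± 0.23, adjusted p = 0.0627). The groups did not overlap for either chain, and they lay in opposite orders. Col10a1, the collagen of hypertrophic cartilage, averaged 0.186 ± 0.152 CPM in CKO lungs and 0.484 ± 0.292 CPM in WT lungs (adjusted p = 0.237).

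Of the 4 transmembrane collagens, which span the cell membrane, 2 rose and 2 did not pass. Col23a1 (chr11:51289920-51583918) had 187, 309 and 355 CPM in CKO lungs, and 129, 131 and 138 CPM in WT lungs. It was 2.14-fold higher (log2 1.10 ± 0.20, adjusted p = 0.0196), and lost its call without CKO replicate 2, CKO replicate 3, WT replicate 1 or WT replicate 2, with adjusted p of 0.0515 to 0.0915. Col13a1 (chr10:61838236-61979108), known from the neuromuscular junction and cell adhesion sites, had 165, 208 and 233 CPM in CKO lungs, and 118, 115 and 118 CPM in WT lungs. It was 1.73-fold higher (log2 0.79 ± 0.11, adjusted p = 0.00828), and was at an adjusted p of 0.0520 without WT replicate 2. For both, the WT lungs lay within a narrow range and CKO replicate 1 was the CKO lung nearest to it. Col25a1, known from motor axon growth into muscle, had 36.4, 56.8 and 66.7 CPM in CKO lungs, and 76.2, 93.5 and 86.8 CPM in WT lungs (log2 -0.68 ± 0.20, adjusted p = 0.0708). For this chain CKO replicate 1 was the farthest from the WT lungs, and without it the chain was called lower (log2 -0.46, adjusted p = 0.0193).

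Outside these classes, Col26a1 (chr5:136741759-136883209), whose product is secreted in the testis and ovary of the mouse, had 35.8, 34.0 and 48.2 CPM in CKO lungs, and 26.6, 21.9 and 15.3 CPM in WT lungs. It was 1.86-fold higher (log2 0.89 ± 0.21, adjusted p = 0.0387). The call was lost without CKO replicate 2, CKO replicate 3, WT replicate 1 or WT replicate 2, with adjusted p of 0.0527 to 0.137. Col28a1, known from nerve sheaths, had 2.57, 2.89 and 4.92 CPM in CKO lungs, and 3.33, 1.40 and 5.69 CPM in WT lungs (adjusted p = 0.999). Schwann and neuronal markers summed to 11.5 to 12.2 CPM in CKO lungs and 9.34 to 12.3 CPM in WT lungs, and none of 5 passed.

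Summed over all chains, collagens took 1.47%, 1.51% and 1.68% of gene counts in CKO lungs, and 1.26%, 1.26% and 1.46% in WT lungs. The mean was 1.56 ± 0.112% in CKO lungs and 1.33 ± 0.113% in WT lungs (SD, n = 3 each; p = 0.10 by a two-sided exact permutation test). This is the smallest p that 3 lungs against 3 allow, so no call at 0.05 is possible; the highest WT lung lay just under the lowest CKO lung. By class, the summed level of the fibrillar chains was 7972 ± 557 CPM in CKO lungs and 6887 ± 357 CPM in WT lungs, without overlap. Most of that sum came from Col3a1, Col1a2 and Col1a1, with means of 2729, 1527 and 1315 CPM in WT lungs, and none of them passed. The median log2 fold change of the fibrillar class was -0.05, so the sum does not stand for the class. FACIT chains summed to 793 ± 44 CPM in CKO lungs and 624 ± 58.0 CPM in WT lungs, and transmembrane chains to 543 ± 137 and 338 ± 10.5 CPM, both without overlap. Col14a1 was the largest part of the FACIT sum, at 419 and 273 CPM. Multiplexins summed to 626 ± 115 CPM in CKO lungs and 909 ± 86.9 CPM in WT lungs, also without overlap. Hexagonal network chains summed to 33.5 ± 8.09 and 18.1 ± 0.565 CPM, and Col26a1 with Col28a1 to 42.8 ± 8.98 and 24.7 ± 4.66 CPM, both without overlap. Type IV chains summed to 2914 ± 65.8 CPM in CKO lungs and 2689 ± 326 CPM in WT lungs, and type VI chains to 2514 ± 352 and 1873 ± 289 CPM, and in both classes the groups overlapped. The share without overlap among such sums of other genes was not computed.

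Chains that share a helix or a fibre were set against each other within each lung, which removes the scaling of the library. Of 12 pairs, 8 had groups that did not overlap, each with an exact permutation p of 0.10 (two-sided, n = 3 against 3, the smallest possible) and 0.150 after adjustment over the 12 pairs, so none could pass 0.05. The share without overlap among pairs of other genes was not computed, and several pairs hold chains already called above. The count of pairs is therefore a description only. The widest shift was in type VIII: the count ratio Col8a1/Col8a2 was 0.0634, 0.0394 and 0.0498 in CKO lungs, and 0.156, 0.166 and 0.252 in WT lungs. Col9a3/Col9a2 was 2.04, 2.60 and 1.91 in CKO lungs, and 0.864, 0.976 and 1.07 in WT lungs. On the log2 scale these pairs differed by -1.90 and 1.16 between groups. Col6a3/Col6a1 was 0.568, 0.425 and 0.407 in CKO lungs, and 0.588, 0.646 and 0.819 in WT lungs (log2 difference -0.55), with CKO replicate 1 next to WT replicate 1.

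In type V, Col5a1/Col5a2 was 1.07, 1.11 and 1.15 in CKO lungs, and 0.848, 0.839 and 0.861 in WT lungs (log2 difference 0.39), a small but even gap. The constant chains of type VI stayed near each other, with Col6a1/Col6a2 at 0.842, 0.788 and 0.779 in CKO lungs, and 0.860, 0.854 and 0.844 in WT lungs (log2 difference -0.09). Col4a1/Col4a2 was the tightest pair, at 2.07, 2.12 and 2.08 in CKO lungs, and 2.04, 2.06 and 2.04 in WT lungs (log2 difference 0.03). Col1a1/Col1a2 and Col4a3/Col4a4 also did not overlap, with log2 differences of 0.15 and 0.31. The groups overlapped for Col4a5/Col4a6, Col9a1/Col9a2, Col11a1/Col2a1 and Col3a1/Col1a1, with log2 differences of -0.06, -0.64, 0.40 and -0.03 and exact permutation p of 0.50, 0.30, 0.50 and 0.70.

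**Figure D4:**
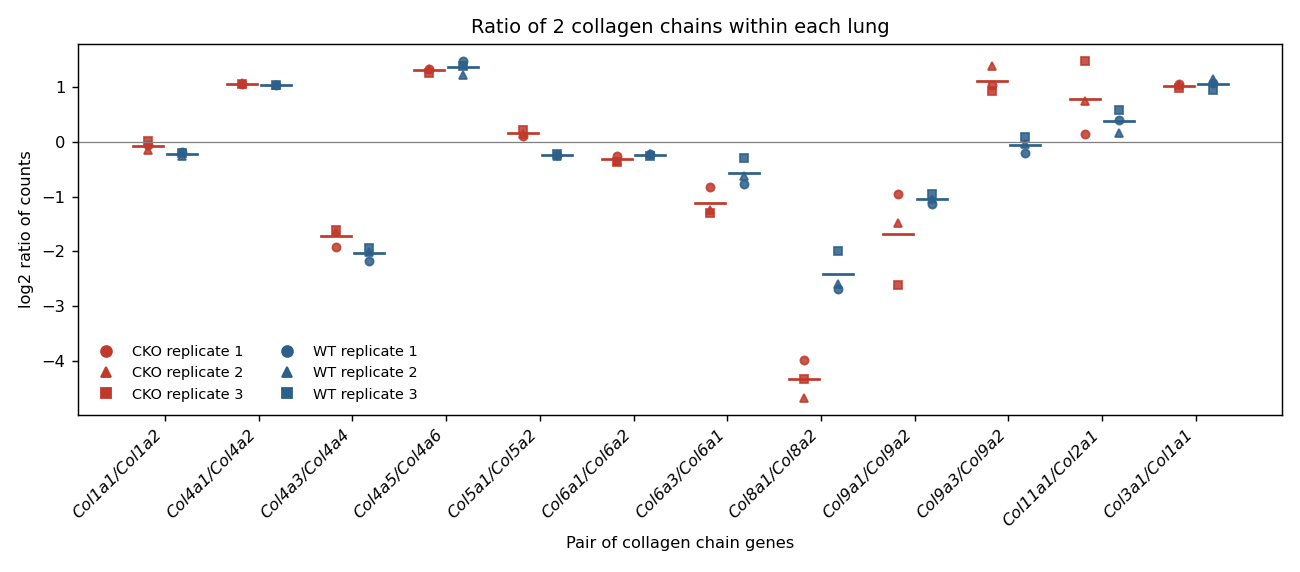
Log2 ratio of the counts of 2 collagen chains within each lung for 12 pairs; points are lungs, with CKO left of WT, and short bars are group means. CKO lungs lie below WT lungs for Col8a1/Col8a2 and Col6a3/Col6a1 and above them for Col9a3/Col9a2 and Col5a1/Col5a2, and both groups sit together at Col4a1/Col4a2.

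Collagen chains are hydroxylated and folded in the endoplasmic reticulum, trimmed by proteases after secretion and crosslinked by lysyl oxidases. Of 30 genes of this machinery, all tested, 7 rose, 1 fell and 22 did not pass, with a median log2 fold change of 0.01; of all tested genes, 5.64% were called higher and 3.08% lower. Those that rose were Pcolce and Pcolce2, enhancers of C-propeptide removal, Tll1, a protease of that step, Adamts2, which removes the N-propeptide, the crosslinking enzyme Loxl2, and the prolyl hydroxylases P4ha2 and P3h2. Loxl1, the gene of another crosslinking enzyme, fell. Pcolce had 183, 197 and 222 CPM in CKO lungs, and 107, 99.4 and 88.1 CPM in WT lungs, 2.04-fold higher (adjusted p = 0.00194). Loxl2 had 131, 129.7 and 144 CPM in CKO lungs, and 94.1, 88.3 and 97.8 CPM in WT lungs, 1.45-fold higher (adjusted p = 0.00411). Both passed with any 1 lung left out, and in both the groups were well apart.

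The other called genes of the machinery did not keep their calls with every lung left out. Tll1 averaged 7.07 ± 1.46 CPM in CKO lungs and 3.77 ± 0.539 CPM in WT lungs, and Adamts2 62.6 ± 7.34 and 40.0 ± 6.60 CPM, 1.88-fold and 1.57-fold higher (adjusted p = 0.0260 and 0.0241). P4ha2, Pcolce2 and P3h2 were 1.41-fold, 1.38-fold and 1.34-fold higher (adjusted p = 0.0106, 0.0167 and 0.0372). Loxl1 averaged 32.5 ± 2.16 CPM in CKO lungs and 41.8 ± 2.52 CPM in WT lungs (log2 -0.37, adjusted p = 0.0246). With the exception of P4ha2 (adjusted p = 0.0502 and 0.0694 without CKO replicate 2 and WT replicate 2), these lost their calls without CKO replicate 2, CKO replicate 3, WT replicate 1 or WT replicate 2, with adjusted p of 0.0602 to 0.147. Of the exon bases of P3h2, 28.35% overlap the antisense gene Gm4524, which had 584 counts beside 4493. The chaperone gene Serpinh1, whose product holds the folded helix, had 1281, 1381 and 1304 CPM in CKO lungs, and 1370.0, 1401 and 1208 CPM in WT lungs (adjusted p = 0.984), and the main crosslinking enzyme gene Lox averaged 520.1 ± 21.1 and 546 ± 79.5 CPM (adjusted p = 0.733).

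Of 10 receptor genes for collagen, all tested, 5 rose, none fell and 5 did not pass, with a median log2 fold change of 0.32, against the same 5.64% of all tested genes called higher and 3.08% lower. Itga11, the alpha subunit of an integrin of mesenchymal cells that binds type I collagen, had 8.02, 10.5 and 12.3 CPM in CKO lungs, and 1.18, 1.46 and 1.61 CPM in WT lungs. It was 7.18-fold higher (log2 2.84 ± 0.20, adjusted p = 0.000844) and passed with any 1 lung left out. Its beta partner Itgb1 averaged 960.1 ± 20.6 CPM in CKO lungs and 962 ± 13.3 CPM in WT lungs (adjusted p = 0.988). Mrc2, an endocytic collagen receptor, was 1.54-fold higher, and the collagen receptor kinases Ddr2 and Ddr1 were 1.28-fold and 1.22-fold higher (adjusted p = 0.0284, 0.0176 and 0.0489). Gp6, the platelet collagen receptor, was low, with 1.49, 1.51 and 1.47 CPM in CKO lungs, and 0.704, 0.565 and 0.750 CPM in WT lungs (adjusted p = 0.0170).

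The receptor calls other than Itga11 were lost in several fits with 1 lung left out. In such fits the log2 fold changes ranged from 0.51 to 0.77 for Mrc2 and 1.03 to 1.25 for Gp6. They ranged from 0.23 to 0.37 for Ddr1 and 0.29 to 0.40 for Ddr2. All genes called higher numbered 162 to 325 without CKO replicate 2, CKO replicate 3, WT replicate 1 or WT replicate 2, against 1006 with all lungs. Mrc2, Gp6 and Ddr1 lost their calls without CKO replicate 2, CKO replicate 3, WT replicate 1 or WT replicate 2, with adjusted p of 0.0568 to 0.173. Ddr1 was also at 0.0522 without WT replicate 3, and Ddr2 was at 0.0588 to 0.0721 without CKO replicate 2, WT replicate 1 or WT replicate 2. Immune markers moved with the groups: of 3 markers Ptprc and Csf1r rose, and the 3 summed to 63.3 to 93.4 CPM in CKO lungs and 48.7 to 49.8 CPM in WT lungs. Both calls were lost without CKO replicate 2, CKO replicate 3, WT replicate 1 or WT replicate 2, with adjusted p of 0.0665 to 0.116. Their part in the receptor values was not tested.

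**Figure D5:**
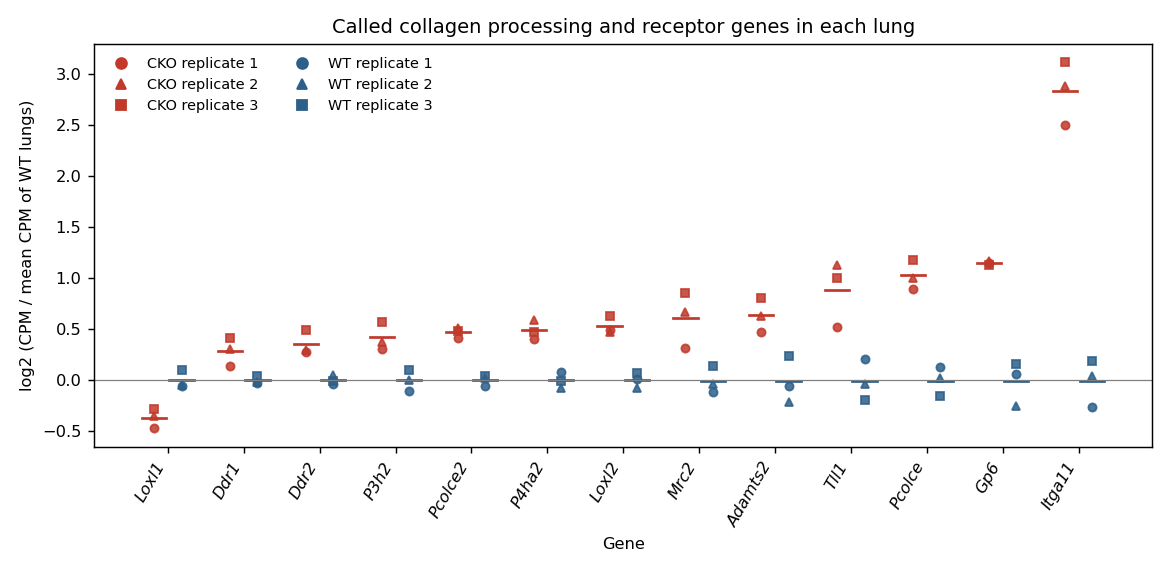
CPM of the 13 called genes of collagen processing and collagen receptors in each lung as log2 of its ratio to the mean of the WT lungs; CKO points are left of WT points and short bars mark the mean of the points. Itga11 lies far above the other genes in all 3 CKO lungs, Pcolce and Gp6 are about 1 log2 unit up, and Loxl1 is the 1 gene below 0.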

How the data were processed

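RNA was measured in whole lungs, grouped and numbered as labelled, with Illumina TruSeq v2 libraries from RNA prepared with Trizol and RNeasy Micro columns, per the labels' protocols. The authors used cutadapt 1.13, Trimmomatic 0.35, STAR 2.5.2b, HTSeq 0.6.1p2 and edgeR 3.16.5 on GRCm38 (per the submitters' processing notes), with GENCODE M8 as its gene models (per the file headers). Read counts were deposited as whole numbers per gene and run, not normalised, and no source used here says if the strand was used. Beside them the authors deposited RPKM and a gene length, and a table of their comparison with log2 fold changes and p-values, whose 24 per-sample columns were not used.

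The 2 runs of a lung were summed. ERCC spike-ins (0.498% to 0.595% of counts) were left out. Counts were tested with edgeR 4.0.16 in R 4.3.3 (TMM, filterByExpr with a minimum count of 10, quasi-likelihood F test, group as the only factor, Benjamini-Hochberg adjustment over 17843 genes). Adjusted p-values are from that fit unless credited to the authors, to the chain pairs or to an alternative, such as a fit with a lung left out. The SE is the log2 fold change over the root of F. CPM use TMM-scaled library sizes, and RPKM divide CPM by merged exon length in GENCODE M21 (also GRCm38), where 98.8% of genes matched by identifier. Positions are from GENCODE M21. With 3 lungs per group, precision rests on the spread between lungs (common biological coefficient of variation 0.127). The procedure was also run on simulated counts, drawn with that coefficient for every gene. The simulation held no lung apart from its group, as CKO replicate 1 was here, so it does not cover that case.

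Alternatives were DESeq2 size factors, total counts, no filter, DESeq2 1.42.0, limma-voom 3.58.1, a replicate block, a covariate, single runs and each lung left out; the longest coding transcript length was added after seeing the data. The members and gene lists were chosen with earlier results of these data known. Given by lung are called chains, the 2 highest chains per class and the chains compared in pairs; processing and receptor genes are given where called. Col12a1, Col17a1, Col25a1, Serpinh1, Lox and Itgb1 were added after their values were seen. The promoter windows used held none for Col9a3, Col14a1, Col22a1 and Col26a1. Those of the called chains Col5a1, Col5a3, Col6a4, Col8a2, Col13a1 and Col23a1 were searched for motifs and are not shown.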

Additional observations from a re-analysis of the deposited data

How the results depend on the processing

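Of 240 results of the 15 called chains under alternatives, 199 kept their call and 41 lost it, all in the same direction. All 15 were called with DESeq2 size factors, total counts, no filter, DESeq2, limma-voom or either run alone. With the share of reads outside features as a covariate 12 were called; Col5a1, Col6a1 and Col26a1 were lost (adjusted p = 0.0586, 0.0582 and 0.0598). Of the other chains, Col18a1, Col9a1, Col8a1 and Col25a1 were called lower without a filter, Col18a1, Col8a1 and Col24a1 with DESeq2, and Col9a1 with limma-voom. Chains lower numbered 2, and 6 without a filter on low counts, 5 with DESeq2 and 9 with replicates 2 and 3 only; all genes lower numbered 549, and 884, 1027 and 1051 in the same order. With replicates 2 and 3 only, 3 processing genes were lower instead of 1.

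The same replicate numbers in CKO and WT showed at most a weak pairing of the lungs. The correlations of their deviations were 0.102, 0.0887 and 0.0365, against -0.108 to 0.0604 for unlike numbers. CKO replicate 3 correlated best with WT replicate 2. Replicate 1 was the female lung in each group, so a replicate block also covers sex. With a replicate block, 13 chains rose, 4 fell, and 14 of the 15 calls held: Col26a1 lost its call (adjusted p = 0.0618), Col1a1 was called higher (0.0440), and Col8a1 and Col25a1 were called lower (0.0353 and 0.0229).

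With 1 lung left out, chains higher ranged from 2 to 16 and lower from 2 to 10, all genes higher from 162 to 1713 and lower from 90 to 1185, processing genes higher from 2 to 9 and lower from 0 to 2, and receptor genes higher from 1 to 6. The median log2 fold change of type IV chains (0.12) ranged from 0.05 to 0.24 and that of FACIT chains (0.19) from 0.08 to 0.36. The type IV median was 0.14 with total counts, 0.10 with the covariate and 0.04 with replicates 2 and 3 only; the FACIT median was 0.09 with replicates 2 and 3 only and 0.29 with the 17Feb16 run, where the hexagonal network median was 0.12 instead of -0.84 with fewer chains tested. The Col3a1/Col1a1 log2 difference, -0.03, ranged from -0.08 to 0.02 with 1 lung left out, and was 0.02 without WT replicate 2; the cause was not tested. Chains near the filter, such as Col10a1 and Col19a1, are limited by depth. Among processing and receptor genes, Ddr1 was at an adjusted p of 0.0528 with total counts, 0.0525 with limma-voom and 0.0753 with the covariate, P3h2 at 0.0647 with the covariate and 0.0605 in the 18Feb16 run, and Pcolce2 at 0.207 in the 17Feb16 run.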
